A study of Mus musculus with 6 samples.

Results

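The Toll-like receptor (TLR) genes Tlr1, Tlr2, Tlr3, Tlr4, Tlr6, Tlr7 and Tlr9, and the genes Cd180, Ly86 and Ly96, were followed in mouse B cells before and after a stimulus for 1 of these receptors, TLR9. Cd180 encodes RP105, a receptor of the TLR family, Ly86 encodes MD-1, the protein that RP105 is bound to, and Ly96 encodes MD-2, the partner of TLR4. These 10 genes were taken by their symbols from the 23420 genes in the values of each sample. B cells were purified with beads from spleens of wild-type BALB/c mice aged 7 to 11 weeks, and 10 M cells, at 10 M per mL, were cultured for 4 hours either with CpG ODN 1826, a TLR9 agonist, at 10 μg/mL (CpG-stimulated, n = 3) or without a stimulus (unstimulated, n = 3). The cells of both groups came from 3 mice, with all receptor genes intact; by their labels, 1 and 2 are female and 3 is male in each group. All of these values are of cultured spleen cells at 1 time and 1 dose. mRNA was sequenced, and the deposited values are log2 counts per M reads (log2 CPM) after quantile normalization.

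TLRs are membrane receptors that bind molecules of microbes or of damaged cells through repeats rich in leucine, and that signal through a cytoplasmic TIR domain. TLR1, TLR2, TLR4 and TLR6 act mainly at the cell surface and bind bacterial lipids, while TLR3, TLR7 and TLR9 act in endosomes and bind nucleic acids. RP105 has an ectodomain like that of TLR4 but lacks a TIR domain, and it is best known from B cells.

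Depth is given only indirectly by these values. The level of a gene without reads, -5.15 log2 CPM, corresponds to 0.5 reads in a library of 17.8 M reads, common to all samples after quantile normalization. On this scale 10 reads stand at -0.76 and 3 reads at -2.34 log2 CPM, and read numbers below were computed from it. The values also carry a shift by replicate number. Tlr5, for example, stood at -5.025, -5.405 and -5.025 log2 CPM in both groups. The read numbers are thus equivalents on this scale and not read counts of the samples. The depth of the single libraries before normalization is unknown. The 9 B cell markers examined all had mean values above 10 reads, with a median of 8.77 log2 CPM. Other cells were represented weakly or unevenly. The means of 0 of 4 neutrophil, 0 of 4 NK cell, 1 of 6 T cell, 2 of 5 conventional dendritic cell, 3 of 4 plasmacytoid dendritic cell and 5 of 8 monocyte and macrophage markers were above 10 reads. Markers of conventional dendritic cells summed to 89.9–105.1 CPM with CpG and 30.5–37.9 CPM without, where Flt3 and Zbtb46 rose and Xcr1, Clec9a and Itgax were too low to be tested. Those of plasmacytoid dendritic cells summed to 127–134 CPM with CpG and 252–261 CPM without. Tcf4 alone made up most of this sum in both groups, and it fell from 7.90 to 6.66 log2 CPM. Bst2 rose, and Siglech, at -3.63 log2 CPM without CpG and -2.66 with it, was too low to be tested. Ccr9 was lower, but was not called without CpG replicate 3 or unstimulated replicate 2 or 3 (limma FDR 0.0561 to 0.0590). The part of these markers in the changes of the receptor genes was not tested. Erythroid markers summed to 384–4912 CPM with CpG and 404–3845 CPM without, with replicate 2 highest in both groups. In bulk samples, fewer cells of a type and less RNA per cell cannot be told apart.

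Of the 10 genes, 9 had enough reads to be tested, that is, a value above 10 reads in at least 3 samples. Tlr7, Tlr9, Tlr1, Ly96 and Ly86 were higher in CpG-stimulated cells, and Cd180, Tlr6 and Tlr4 were lower, at an FDR under 0.05 (limma with Benjamini-Hochberg adjustment over 11233 genes). Tlr2 was not called, and Tlr3 was too low to be tested. So 5 of 9 genes rose, where 37.6% of all genes tested did, and 3 of 9 fell, where 36.7% did. A call by itself was therefore common in this comparison. With a log2FC over 1, there were 3 genes (Tlr7, Ly96 and Tlr9) against a background of 15.8%, and with a log2FC under -1 there were 2 (Tlr4 and Cd180) against 15.3%. On the log2(CPM + 1) scale Ly96 was no longer over 1, which left 2 genes. Tlr6, at a log2FC of -0.99, lay close to the limit of -1. The values of the groups did not overlap in 5 tested genes that were higher, for a background of 39.1%, and in 3 that were lower, for 38.6%. The median log2FC of the 9 genes was 0.37, and that of all genes tested was 0.0033. Tlr4 and Ly96 lay close to the limit for testing and passed it mainly through the group in which they were higher, so their differences enter these counts in part by that limit.

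**Figure D1:**
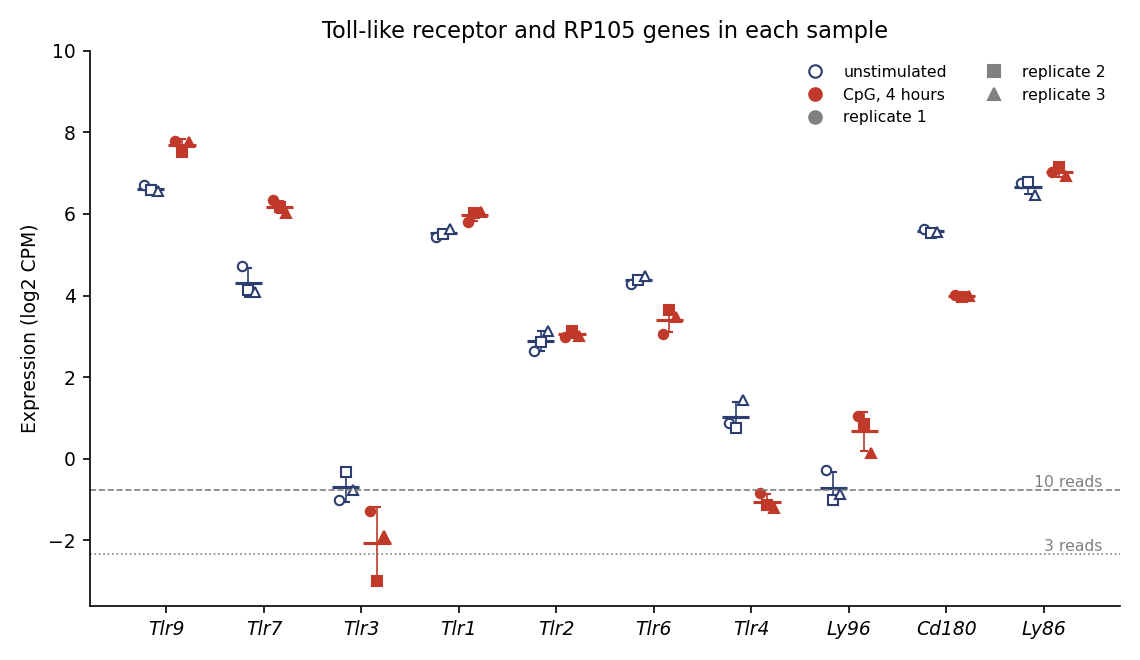
Expression (log2 CPM) of the 10 genes in each of the 6 samples; open symbols are unstimulated and filled symbols CpG-stimulated samples, the shape gives the replicate number, and bars give the mean and SD of 3 samples. The groups stand apart in all genes but Tlr2, and Tlr3, Tlr4 and Ly96 lie near the dashed line of 10 reads.

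**Figure D2:**
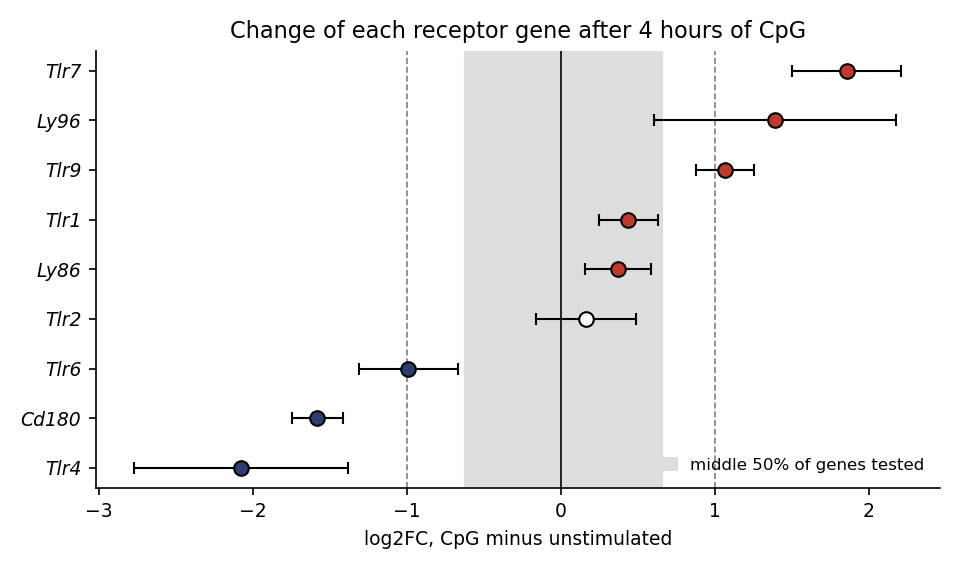
Log2FC (CpG minus unstimulated) of the 9 tested genes with 95% confidence intervals from limma; red is higher, blue lower and white not called at an FDR under 0.05, and the gray band spans the quartiles of all genes tested. Tlr7, Ly96 and Tlr9 lie to the right of the band, Tlr6, Cd180 and Tlr4 to its left, and Tlr1, Ly86 and Tlr2 within it.

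Among the endosomal receptors, Tlr7 showed the greatest change. Tlr7, which encodes a receptor for single-stranded RNA, is on chrX:167304929-167330558 on the minus strand (GRCm38, GENCODE M21), with 5 exons. In unstimulated cells its values were 4.73, 4.13 and 4.10 log2 CPM, and in CpG-stimulated cells they were 6.33, 6.17 and 6.03. The lowest stimulated sample was thus well above the highest unstimulated one. The means were 6.18 ± 0.15 and 4.32 ± 0.36 log2 CPM (SD, n = 3 each), a 3.63-fold increase (log2FC 1.86, SE 0.16, 95% CI 1.504 to 2.21, limma FDR 2.56e-06). Of all genes tested, 3.96% had a higher log2FC. These values corresponded to 1158–1432 reads with CpG and 304–472 reads without.

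Tlr9 encodes the receptor for unmethylated CpG DNA, that is, for the stimulus itself. It is on chr9:106222598-106226883 on the plus strand, with 2 exons. Its values were 6.71, 6.59 and 6.56 log2 CPM in unstimulated cells and 7.78, 7.51 and 7.77 in CpG-stimulated cells, without overlap. The mean rose from 6.62 ± 0.082 to 7.69 ± 0.15 log2 CPM (SD, n = 3 each), a 2.09-fold increase (log2FC 1.07, SE 0.083, 95% CI 0.88 to 1.25, limma FDR 1.37e-06). A higher log2FC was found in 14.5% of all genes tested. At 1673–1863 reads without CpG and 3242–3896 with it, Tlr9 rested on more reads in each sample than any other TLR gene here. The 250 bases before its start held a PU.1 core (GAGGAA, beginning 112 bases before the RefSeq start) and an AP-1 motif (TGACTCA, 58 bases before it), both in capitals below. They are shown because Tlr9 is the receptor for the stimulus and because PU.1 and AP-1 are factors known in B cells. The stretch is chr9:106222348-106222597, plus strand, GRCm38.p6, from RefSeq, written 5′ to 3′.
Tlr9: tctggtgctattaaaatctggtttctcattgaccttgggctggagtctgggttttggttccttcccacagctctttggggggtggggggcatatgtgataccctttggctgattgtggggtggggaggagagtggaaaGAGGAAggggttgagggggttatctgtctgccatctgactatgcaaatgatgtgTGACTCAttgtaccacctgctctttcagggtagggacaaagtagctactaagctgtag

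Tlr7 and Tlr9 are the most alike of the endosomal receptors, with 37.4% identical residues over 1016 aligned residues of proteins of 1050 and 1032 residues. No stretch of 75 bases, the read length, was shared between their transcripts and those of other genes. Within each sample Tlr7 was lower than Tlr9, and this gap became smaller with CpG, from -2.30 ± 0.28 to -1.51 ± 0.21 on the log2 scale (SD, n = 3 each). The ratio of Tlr7 to Tlr9 was thus 1.73 times higher in stimulated cells. The values of the 3 samples of each group did not overlap, and the exact two-sided permutation test gave p = 0.1, the smallest that 3 against 3 samples allow; over the 7 pairs of genes compared, the adjusted p was 0.1 for each pair.

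Tlr3, which encodes a receptor for double-stranded RNA, was near the limit of detection. It is on chr8:45395665-45411080 on the minus strand, with 7 exons. Values were -1.01, -0.33 and -0.76 log2 CPM in unstimulated cells and -1.29, -2.98 and -1.89 in CpG-stimulated cells, or 8.3–13.7 and 1.75–6.78 reads. The groups did not overlap, but only 1 sample was above the limit for testing. The mean difference of -1.35 therefore has no test, and it ranged from -0.28 to -2.66 between replicate numbers. An antisense gene, Gm45542, covers a part of Tlr3, and 4.28% of the 75-base stretches of Tlr3 are shared with it.

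Turning to the receptors for lipids, Tlr1 and Tlr6 changed in opposite directions. Both encode partners of TLR2: TLR1 with TLR2 binds triacylated lipopeptides, and TLR6 with TLR2 binds diacylated ones. Their genes are neighbors on chromosome 5, on the minus strand, 18467 bases apart, Tlr1 at chr5:64924679-64933563 with 4 exons and Tlr6 at chr5:64952031-64960097 with 2.

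Tlr1 stood at 5.44, 5.51 and 5.63 log2 CPM in unstimulated cells and at 5.81, 6.03 and 6.04 in CpG-stimulated cells. This was a small increase without overlap, from 5.52 ± 0.093 to 5.96 ± 0.13 log2 CPM (SD, n = 3 each), or 1.36-fold (log2FC 0.44, SE 0.085, 95% CI 0.25 to 0.63, limma FDR 0.000937). Since the quartiles of log2FC over all genes tested were -0.62 and 0.65, a log2FC of this size was ordinary here.

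Tlr6 gave 4.28, 4.37 and 4.49 log2 CPM in unstimulated cells and 3.06, 3.64 and 3.47 in CpG-stimulated cells. All stimulated samples were lower than all unstimulated ones, and they were also more spread out. The mean fell from 4.38 ± 0.10 to 3.39 ± 0.29 log2 CPM (SD, n = 3 each), to 1.99-fold lower (log2FC -0.99, SE 0.14, 95% CI -1.31 to -0.67, limma FDR 0.000125).

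The proteins of Tlr1 and Tlr6 share 66.5% of 790 aligned residues, the highest identity between any of the 10 genes. Of the 75-base stretches of their transcripts, 10.6% in Tlr1 and 9.25% in Tlr6 also occur in another gene, for Tlr6 only in Tlr1. How the counting treated such reads is not given in the sources used here, so both levels are uncertain by that share. Within each unstimulated sample Tlr1 was above Tlr6 by nearly the same amount, 1.14 ± 0.012 on the log2 scale (SD, n = 3). With CpG the gap was 2.57 ± 0.18, and the ratio of Tlr1 to Tlr6 was thus 2.69 times higher, again without overlap (exact two-sided permutation p = 0.1, the smallest possible).

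The promoters of these neighbors are shown since the genes changed in opposite directions. Before Tlr1 the letters of the PU.1 core GAGGAA begin 23 bases before the RefSeq start. Before a RefSeq start of Tlr6 there were 2 overlapping matches to the interferon-stimulated response element (ISRE), TTTC, NN and TTTC again. They begin 116 and 110 bases before that start, and both start and matches lie within the gene as annotated in GENCODE. Motifs are in capitals. The stretch of Tlr1 is chr5:64933564-64933808 and that of Tlr6 is chr5:64959167-64959416, both minus strand, GRCm38.p6, from RefSeq, 5′ to 3′.
Tlr1: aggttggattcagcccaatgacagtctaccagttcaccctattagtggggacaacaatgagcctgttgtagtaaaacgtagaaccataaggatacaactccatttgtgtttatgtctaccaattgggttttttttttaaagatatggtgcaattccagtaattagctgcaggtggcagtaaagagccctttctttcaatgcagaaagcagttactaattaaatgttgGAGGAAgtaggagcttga
Tlr6: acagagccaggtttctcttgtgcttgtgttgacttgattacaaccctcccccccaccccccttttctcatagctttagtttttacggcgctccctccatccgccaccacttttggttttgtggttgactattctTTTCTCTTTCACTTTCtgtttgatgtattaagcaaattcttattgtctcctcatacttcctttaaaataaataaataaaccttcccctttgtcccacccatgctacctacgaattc
A second start of Tlr6 in RefSeq, which lies further upstream and nearer to the GENCODE start of the gene, had none of the 5 motifs in its 250 bases.

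Tlr2, the shared partner of both, is on chr3:83836272-83841767 on the minus strand, with 3 exons. It was at 2.65, 2.87 and 3.14 log2 CPM in unstimulated cells and at 2.99, 3.14 and 3.01 in CpG-stimulated cells. The groups overlapped, and replicate 3 was slightly lower with CpG while replicates 1 and 2 were higher. The means, 2.89 ± 0.24 and 3.05 ± 0.082 log2 CPM (SD, n = 3 each), were not distinguished (log2FC 0.16, SE 0.15, 95% CI -0.16 to 0.49, limma FDR 0.332). The interval leaves room for a small change in either direction. Tlr1 stood above Tlr2 by 2.64 ± 0.15 in unstimulated and 2.92 ± 0.11 in stimulated samples on the log2 scale (SD, n = 3 each, exact two-sided permutation p = 0.1). Of the genes with a promoter in the table, Tlr2 and Tlr3 held a match to the NF-kB motif, the site of the factor that TLRs are best known to activate. In Tlr2 2 overlapping matches begin 173 and 172 bases before the RefSeq start; they are in capitals in the stretch chr3:83841768-83841858, minus strand, GRCm38.p6, from RefSeq, 5′ to 3′.
Tlr2: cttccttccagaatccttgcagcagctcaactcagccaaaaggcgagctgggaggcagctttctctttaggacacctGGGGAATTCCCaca

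Tlr4, which encodes the receptor for lipopolysaccharide (LPS), was low and fell further. It is on chr4:66827584-66930284 on the plus strand, with 3 exons. Unstimulated cells had 0.87, 0.74 and 1.44 log2 CPM, or 29.3–47.6 reads, and CpG-stimulated cells had -0.84, -1.14 and -1.21, or 7.21–9.45 reads. All stimulated samples were below the level of 10 reads. The difference was 4.22-fold (1.02 ± 0.37 to -1.06 ± 0.20 log2 CPM, SD, n = 3 each; log2FC -2.08, SE 0.31, 95% CI -2.77 to -1.38, limma FDR 0.000155). Tlr4 passed the limit for testing through the unstimulated samples alone.

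Ly96 encodes MD-2, which binds LPS within the ectodomain of TLR4. It is on chr1:16688051-16709611 on the plus strand, with 5 exons. It moved the other way, from -0.29, -1.005 and -0.85 log2 CPM in unstimulated cells to 1.05, 0.85 and 0.14 with CpG, or from 8.36–14.1 to 19.0–36.3 reads. The groups did not overlap, and the stimulated values covered nearly 1 log2 unit. The mean was 2.63-fold higher (0.68 ± 0.48 against -0.71 ± 0.38 log2 CPM, SD, n = 3 each; log2FC 1.39, SE 0.35, 95% CI 0.61 to 2.18, limma FDR 0.00469), the widest interval of the genes that rose.

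Within each unstimulated sample, log2 CPM of Tlr4 was above that of Ly96, by 1.16, 1.75 and 2.29. In each stimulated sample it was below it, by values of -1.89, -1.99 and -1.34. The ratio of Tlr4 to Ly96 thus changed 11.1-fold, from 1.73 ± 0.57 to -1.74 ± 0.35 on the log2 scale (SD, n = 3 each, exact two-sided permutation p = 0.1, the smallest possible). It rests on few reads of both genes. Log2 CPM is not corrected for length, so the side of 0 does not give which gene was more abundant. Per kilobase of exon, Ly96 was above Tlr4 in unstimulated cells too (-0.74 ± 0.38 against -1.46 ± 0.37 log2 CPM per kb, SD, n = 3 each). The change between the groups does not depend on length. On the log2(CPM + 1) scale the change of this pair was -1.73 in place of -3.47, and the log2FC was -1.04 for Tlr4 and 0.70 for Ly96. Since both genes are also expressed by myeloid cells, markers of monocytes and macrophages were set beside them. The 8 markers summed to 20.2–26.5 CPM with CpG and 12.7–18.7 CPM without. Of the 6 that could be tested, Csf1r (-0.37 to -1.98 log2 CPM) and Cd14 (0.51 to -1.23) were lower with CpG, Adgre1 (2.33 to 3.16) and Cd68 (2.29 to 3.41) were higher, and Lyz2 and Itgam were not called; Fcgr1 was under 3 reads in the mean of either group. Csf1r and Cd14 passed the limit for testing through their unstimulated samples alone, and Csf1r was not called without unstimulated replicate 3 (limma FDR 0.0754). Their part in the changes of Tlr4 and Ly96 was not tested.

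**Figure D3:**
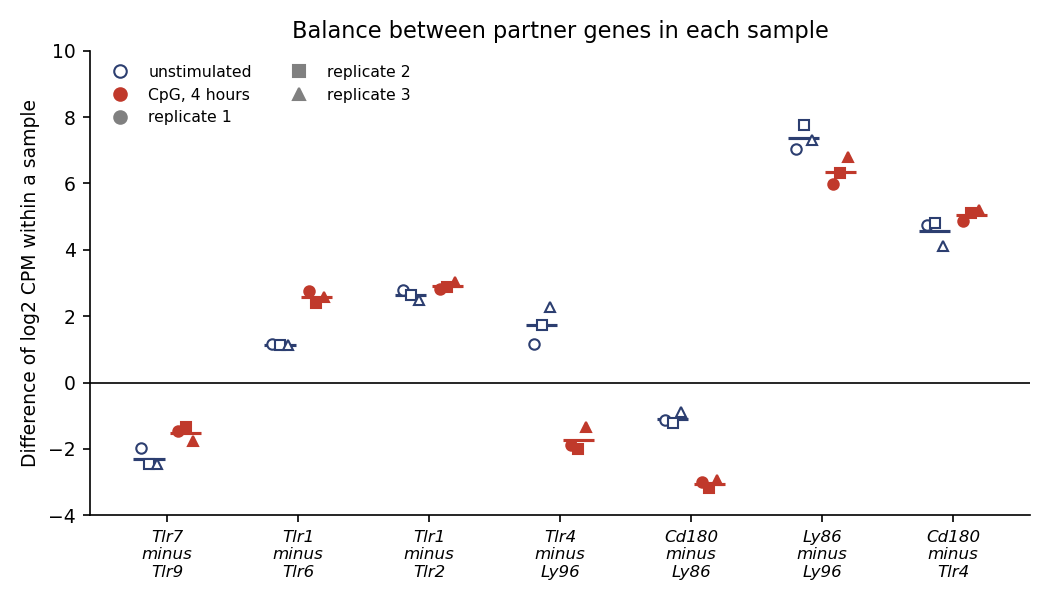
Difference of the log2 CPM of 2 genes within each sample, for 7 pairs of partners or related genes; open symbols are unstimulated and filled symbols CpG-stimulated samples, the shape gives the replicate number, and lines are means. Only Tlr4 minus Ly96 crosses 0, and the groups do not overlap in any pair. The values are not corrected for gene length, and per kilobase of exon Ly96 was above Tlr4 in both groups.

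Of the 3 genes that fell, Cd180 had the lowest FDR. RP105, its product, is found on the surface of B cells with MD-1, promotes B cell proliferation when bound by antibody, and limits signaling of TLR4 in myeloid cells. Cd180 is on chr13:102693558-102739629 on the plus strand, with 3 exons. It gave 5.63, 5.54 and 5.57 log2 CPM in unstimulated cells, or 827–877 reads, and 4.02, 3.97 and 3.99 in CpG-stimulated cells, or 278–288 reads. The samples of each group lay very close together, with a wide gap between the groups. The mean was 2.997-fold lower (5.58 ± 0.044 to 3.99 ± 0.024 log2 CPM, SD, n = 3 each; log2FC -1.58, SE 0.074, 95% CI -1.75 to -1.42, limma FDR 6.00e-08), and 7.30% of all genes tested had a lower log2FC. Cd180 overlaps Mast4 on the opposite strand, and 2.47% of its 75-base stretches are shared with Mast4. Mast4 was also lower with CpG, from 6.29 ± 0.27 to 5.34 ± 0.11 log2 CPM (SD, n = 3 each; log2FC -0.95, limma FDR 5.79e-05). The library kit is described as stranded in the methods, while the strand setting of the counting is not given in the sources used here, so the part that reads of Mast4 have in Cd180 was not tested.

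Ly86, the gene of MD-1, did not follow Cd180. It is on chr13:37345208-37419036 on the plus strand, with 5 exons. Unstimulated cells had 6.76, 6.77 and 6.46 log2 CPM and CpG-stimulated cells 7.03, 7.16 and 6.92. Replicate 3 was lowest in both groups, and the groups did not overlap. The increase was 1.29-fold (6.67 ± 0.17 to 7.04 ± 0.12 log2 CPM, SD, n = 3 each; log2FC 0.37, SE 0.095, 95% CI 0.16 to 0.58, limma FDR 0.00518). It was the smallest of the called changes, and its FDR was 0.0751 when genes of any level were included in the fit.

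In unstimulated cells log2 CPM of Cd180 was below that of Ly86 by -1.09 ± 0.17, and in CpG-stimulated cells by -3.04 ± 0.13 (SD, n = 3 each). The ratio of Cd180 to Ly86 was thus 3.87 times lower with CpG (exact two-sided permutation p = 0.1, the smallest possible). MD-1 and MD-2 are related proteins of 162 and 160 residues with 23.4% identity over 154 aligned residues. Both of their genes were higher with CpG while those of both partner receptors were lower. Tlr4 and Ly96, however, passed the limit for testing mainly through the group in which they were higher. Ly86 was not called without a filter (limma FDR 0.0751). The gap of Ly86 over Ly96 was 7.38 ± 0.37 in unstimulated and 6.36 ± 0.41 in stimulated samples on the log2 scale (SD, n = 3 each), a change of -1.02, or of -0.33 on the log2(CPM + 1) scale. Between the receptors, Cd180 stood above Tlr4 by 4.56 ± 0.37 and 5.06 ± 0.18 log2 units, but the direction of this last difference turned, from 0.49 to -0.49, when log2(CPM + 1) was used.

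The promoters of the partner genes Cd180 and Ly86 are shown beside each other since Cd180 fell and Ly86 rose. Neither of the stretches, nor the second start of Cd180 in RefSeq, held any of the 5 motifs, and they have no capitals. That of Cd180 is chr13:102693297-102693546 and that of Ly86 is chr13:37345095-37345207, both plus strand, GRCm38.p6, from RefSeq, 5′ to 3′.
Cd180: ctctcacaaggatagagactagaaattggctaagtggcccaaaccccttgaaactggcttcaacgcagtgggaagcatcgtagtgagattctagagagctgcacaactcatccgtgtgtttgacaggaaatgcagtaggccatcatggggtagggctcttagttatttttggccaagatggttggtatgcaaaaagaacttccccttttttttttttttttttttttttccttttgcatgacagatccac
Ly86: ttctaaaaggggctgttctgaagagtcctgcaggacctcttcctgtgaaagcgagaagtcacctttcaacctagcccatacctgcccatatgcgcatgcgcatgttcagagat

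The motifs were searched on both strands in the 250 bases before each start. A match to NF-kB was found in 3.90% of the 32851 RefSeq promoters, one to ISRE in 2.98%, the PU.1 core GAGGAA in 23.3%, the CRE (TGACGTCA) in 1.55%, and AP-1 (TGAGTCA or TGACTCA) in 4.46%. Of the 10 genes, 7 were in the promoter table, with 10 windows; Ly96, Tlr4 and Tlr7 had no entry. The match to NF-kB in Tlr3 begins 211 bases before the RefSeq start, within the gene as annotated in GENCODE. These matches describe letters only.

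Compared per kilobase of exon, Tlr9 and Ly86 were the most abundant in both groups. In unstimulated cells Tlr9 was at 4.82 ± 0.082 and Ly86 at 4.81 ± 0.17 log2 CPM per kb, which overlapped, followed by Tlr1 (3.78 ± 0.093) and Cd180 (3.41 ± 0.044). Tlr6 (2.48 ± 0.10) and Tlr7 (2.29 ± 0.36) overlapped, and Tlr2 (1.30 ± 0.24), Ly96 (-0.74 ± 0.38), Tlr4 (-1.46 ± 0.37) and Tlr3 (-3.08 ± 0.35) came last, each apart from the next (SD, n = 3).

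With CpG the order changed in the middle of this range. Tlr9 stood at 5.89 ± 0.15 log2 CPM per kb and was now apart from Ly86 (5.18 ± 0.12). Tlr1 (4.22 ± 0.13) and Tlr7 (4.15 ± 0.15) overlapped, so that Tlr7 had moved from rank 6 to rank 4. Cd180 (1.82 ± 0.024) was next, above Tlr6 (1.49 ± 0.29) and Tlr2 (1.46 ± 0.082), which overlapped. Ly96 (0.65 ± 0.48), Tlr4 (-3.54 ± 0.20) and Tlr3 (-4.43 ± 0.86) were last, and the values of Tlr4 and Tlr3 overlapped (SD, n = 3). These levels depend on the exons counted. With the length of the longest coding transcript, Ly86 was above Tlr9 in both groups, at 6.48 log2 CPM per kb in unstimulated and 6.85 in stimulated cells, and unstimulated Cd180 (4.17) was above Tlr1 (3.93).

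**Figure D4:**
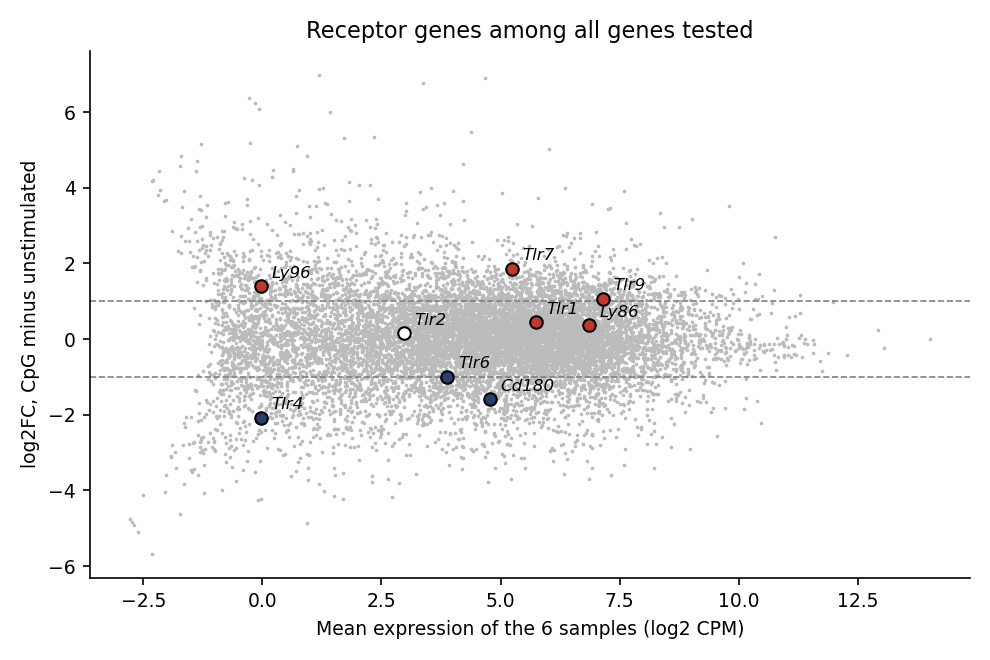
Log2FC (CpG minus unstimulated) against the mean expression of the 6 samples (log2 CPM) for the 11233 genes tested (gray points) and the 9 tested receptor genes (red higher, blue lower, white not called); dashed lines mark a log2FC of 1 and -1. Tlr7, Tlr9 and Cd180 lie at well expressed levels, while Tlr4 and Ly96 lie among genes of few reads.

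The remaining TLR genes of the mouse were nearly silent. Tlr5 and Tlr11 were at the level without reads in both groups, and Tlr8 and Tlr13 were below that of 3 reads in the mean of each group; none of these 4 could be tested. Tlr12, which encodes a receptor for profilin of parasites, had -0.27, -0.75 and 0.10 log2 CPM in unstimulated cells, or 10.1–18.6 reads, and was at the level without reads in all 3 CpG-stimulated samples. It was thus at least 4.11-fold lower, computed against the level of 3 reads per library (limma FDR 0.000137), and it was tested only because of its unstimulated values.

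The genes that fold, move, process, assist, transmit or limit TLRs were taken from 6 lists. For each list, the counts of genes that rose or fell are set against 37.6% and 36.7% of all genes tested. Among 9 tested genes of folding and transport, 2 rose, 6 fell and 1 was not called (median log2FC -0.64, against 0.0033 for all genes). Unc93b1, whose product carries endosomal TLRs out of the endoplasmic reticulum (ER), rose from 8.23 ± 0.085 to 8.56 ± 0.14 log2 CPM (log2FC 0.33, SE 0.081, limma FDR 0.00378, or 0.0518 with genes of any level included), and Lrrc59, which acts in the same step, rose by a log2FC of 0.32 (limma FDR 0.00116). Slc15a4, an endolysosomal transporter needed for TLR7 and TLR9 responses, fell from 7.43 ± 0.056 to 5.67 ± 0.24 log2 CPM (log2FC -1.77, SE 0.11, limma FDR 2.44e-07). Sdcbp, which encodes syntenin-1, a partner of UNC93B1 that restrains TLR7, fell by a similar amount (log2FC -1.76, SE 0.13, limma FDR 9.00e-07). Thus the list holds small increases and several greater decreases.

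Of the endosomal proteases and nucleases, 1 of 9 tested genes rose, 5 fell and 3 were not called (median log2FC -0.53). Lgmn, which encodes a protease that cleaves TLR9, rose from 5.94 ± 0.091 to 6.41 ± 0.17 log2 CPM (log2FC 0.47, limma FDR 0.000905). Pld3 and Pld4 encode exonucleases that degrade single-stranded DNA and RNA, the kinds of ligand that TLR9 and TLR7 bind. Pld3 fell from 6.06 ± 0.050 to 3.97 ± 0.29 log2 CPM (log2FC -2.09, SE 0.13, limma FDR 2.64e-07) and Pld4 from 4.69 ± 0.16 to 3.32 ± 0.25 (log2FC -1.37, SE 0.14, limma FDR 8.56e-06). Rnaset2b, an RNase gene with a near-identical copy, Rnaset2a, that is listed at the level without reads in all samples, had a log2FC of -1.39 (limma FDR 0.00257) and is uncertain for that reason.

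Among co-receptors and proteins that hand ligands to TLRs, 0 of 4 tested genes rose and 4 fell (median log2FC -0.88). Cd14, which passes LPS to TLR4 and MD-2, went from 0.51 ± 0.79 to -1.23 ± 0.26 log2 CPM (log2FC -1.74, SE 0.43, limma FDR 0.0043), a difference at a low level like that of Tlr4, with an FDR of 0.0541 when genes of any level were included in the limma fit. Like Tlr4, it was tested through its unstimulated samples alone. Cd300lf (log2FC -0.89, limma FDR 0.00102) and Cd36, which assists TLR2 with TLR6 (5.86 ± 0.090 to 4.99 ± 0.14 log2 CPM, log2FC -0.87, limma FDR 9.92e-06), were lower as well. The decrease of Hmgb1, which encodes a nuclear protein that binds DNA, was small (log2FC -0.22, limma FDR 0.0184), and it was no longer called without CpG replicate 1 or 3 or without unstimulated replicate 2 or 3 (limma FDR 0.0532 to 0.0675).

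The 12 TIR adaptors and proximal kinases were all tested, and 5 rose, 5 fell and 2 were not called (median log2FC -0.023). Ticam2 and Ticam1 encode the adaptors TRAM and TRIF, used by TLR4 and, for TRIF, TLR3. Ticam2 rose from 3.76 ± 0.33 to 4.81 ± 0.16 log2 CPM (log2FC 1.05, SE 0.16, limma FDR 0.000155) and Ticam1 from 4.49 ± 0.16 to 5.29 ± 0.11 (log2FC 0.81, SE 0.10, limma FDR 4.33e-05). Irak3, which encodes the inhibitory kinase IRAK-M, fell from 5.51 ± 0.044 to 3.85 ± 0.33 log2 CPM (log2FC -1.66, SE 0.14, limma FDR 2.89e-06), and Irak2 fell from 7.62 ± 0.11 to 6.56 ± 0.17 (log2FC -1.06, SE 0.091, limma FDR 2.73e-06).

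Of 9 tested negative regulators, 1 rose and 8 fell (median log2FC -0.68), for backgrounds of 37.6% and 36.7%. With no filter 6 fell, and 7 fell without a variance trend, without CpG replicate 3 or without unstimulated replicate 2 or 3. Tnfaip3, which encodes the ubiquitin editing enzyme A20 and is a target of NF-kB, rose from 9.23 ± 0.066 to 9.90 ± 0.091 log2 CPM (log2FC 0.67, SE 0.069, limma FDR 1.04e-05). Sigirr, which encodes an inhibitory receptor with a TIR domain, fell from 3.73 ± 0.053 to 1.36 ± 0.17 log2 CPM (log2FC -2.37, SE 0.14, limma FDR 2.13e-07), a greater decrease than that of any of the 9 tested receptor genes. Irak3, already described, and the deubiquitinase gene Cyld (7.39 ± 0.093 to 5.84 ± 0.052 log2 CPM, log2FC -1.56, limma FDR 4.61e-08) were the next. This list shares Irak3 with the adaptors and kinases.

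Of 9 genes known to act with or after RP105 in B cells, 2 rose and 7 fell (median log2FC -0.64). The number that fell was 6 without a filter, without a variance trend, and without CpG replicate 1 or unstimulated replicate 2 or 3. Blnk, which encodes an adaptor of B cell receptor signaling, rose from 7.43 ± 0.062 to 8.06 ± 0.015 log2 CPM (log2FC 0.63, limma FDR 4.48e-06). The kinase genes Syk (9.82 ± 0.17 to 8.08 ± 0.19 log2 CPM, log2FC -1.75, limma FDR 2.80e-07) and Btk (7.69 ± 0.11 to 6.03 ± 0.094, log2FC -1.66, limma FDR 5.65e-08) fell by about as much as Cd180 itself. Markers of B cells moved too, as 3 of 9 rose and 5 fell, and their summed level was 3114–3551 CPM with CpG and 4355–4977 CPM without. Markers used for marginal zone B cells summed to 382–469 CPM with CpG and 806–866 CPM without, and 4 of 6 fell. Of all genes tested, 37.6% rose and 36.7% fell. The part of these B cell markers in the changes of the receptor genes was not tested.

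**Figure D5:**
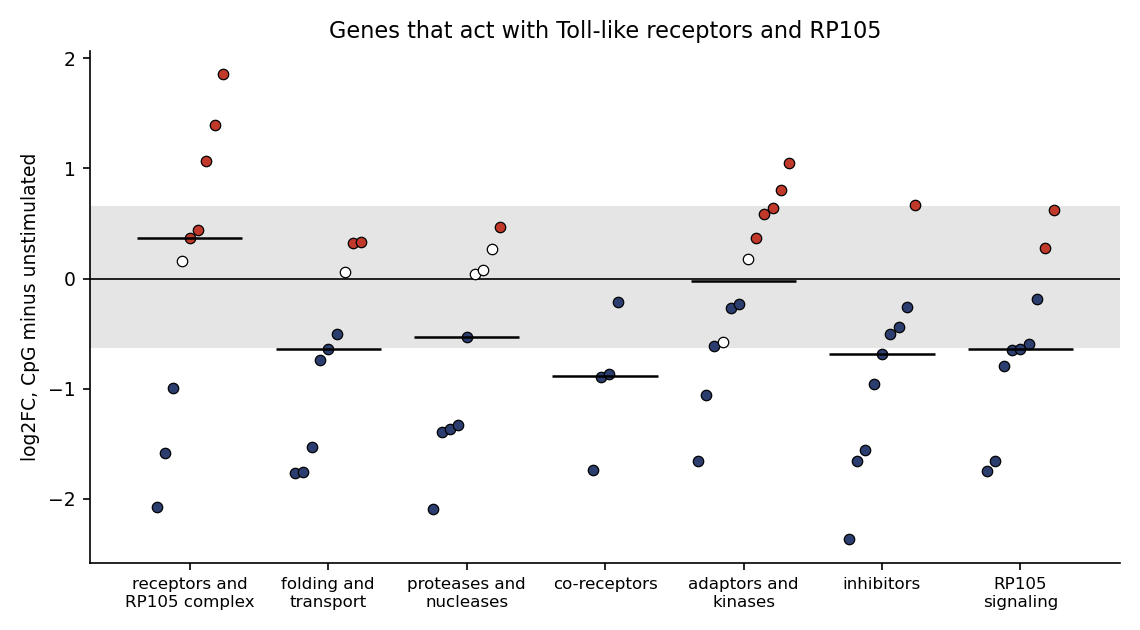
Log2FC (CpG minus unstimulated) of each tested gene of the receptors and of 6 lists of genes that act with them; red is higher, blue lower and white not called at an FDR under 0.05 (limma), lines are medians, and the gray band spans the quartiles of all genes tested. The medians of folding and transport, co-receptors, inhibitors and RP105 signaling lie below the band's lower edge of -0.62, that of proteases and nucleases lies within it at -0.53, and adaptors and kinases are spread on both sides of 0.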

How the data were processed

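RNA-seq values of 3 CpG-stimulated and 3 unstimulated samples were used; conditions and replicate numbers were taken from the sample labels. The authors trimmed reads with Trim Galore 0.6.5, aligned them to mm10 with STAR 2.6.1a, counted them per gene with featureCounts (Subread 2.0.1), and applied quantile normalization and voom in limma. The deposited values are log2 CPM. Raw counts were not used here, and a change in total RNA per cell cannot be seen after this normalization.

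From these values, the 2 groups were tested against each other in limma (version 3.58.1, R 4.3.3; a linear model with moderated variances and a variance trend, two-sided) over the 11233 of 23420 genes that were above 10 reads in at least 3 samples, with Benjamini-Hochberg adjustment over all of them; a call is an FDR under 0.05. The procedure was tested on simulated data in which few genes changed, all upward, with independent noise and no pairing by replicate number. That simulation cannot tell how the procedure performs on values paired as here, where many genes changed in both directions. Pairs of genes were compared by exact permutation tests of their difference within samples. These tests do not use the pairing of samples, so exact sign-flip permutation tests by replicate number were set beside them. The exact two-sided sign-flip permutation test gave p = 0.25 for each of the 7 pairs. This is the smallest p that 3 replicate numbers allow, so the paired test could not reach 0.05 for any pair. The 10 genes, the lists, the pairs and the tests were chosen with earlier results of these data known. All 10 genes are named, and of each list up to 4 called genes with the largest and the most negative log2FC. Some genes of the lists are not reported here.

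Gene positions, exon lengths and shared 75-base stretches came from GENCODE M21 (GRCm38), protein identity from its coding sequences, translated and aligned with Biopython 1.88, and promoters from RefSeq (GRCm38.p6). Promoter stretches were printed only outside annotated exons. Older symbols were matched through the RefSeq table; Tasl was not matched.

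Deviations from the group means correlated at 0.435, 0.224 and 0.300 for samples of the same replicate number and at -0.281 to 0.0279 for the others, so the numbers were taken to pair the samples. The deposited values also carry a shift by replicate number. Below the level without reads, samples with the same number often hold the same value (2670 of 5722 cases). Alternatives were the filter, log2(CPM + 1), the replicate block, no trend, median centring and each sample left out.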

Additional observations from a re-analysis of the deposited data

How the results depend on the processing

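Of 107 values of log2FC of the 10 genes under the alternatives (no filter, 10 reads in every sample, log2(CPM + 1), the replicate block, no variance trend, median centring and each sample left out), 106 kept their direction and, for tested genes, their side of the FDR threshold. The other was Ly86, with an FDR of 0.0751 without a filter. The filters, the block and the trend leave log2FC as it is, so only the FDR could change there. The 1 value of Tlr3 came from the fit without a filter that also gave its log2FC, so it could not differ. With the replicate block 5 of the genes rose and 3 fell, and none of 61 calls among them and the lists changed. With 10 reads required in every sample, Tlr4 and Ly96 were not kept, so that 4 of the genes rose, 2 of them with a log2FC over 1, and 2 fell, 1 of them with a log2FC under -1, and 0 other TLR genes fell, since Tlr12 was not kept. A log2FC under -1 was reached by 3 of the 10 genes without CpG replicate 2 or 3 or unstimulated replicate 1. There Tlr6 was at -1.115, -1.03 and -1.041. Without a filter, 1 folding and transport gene rose and 2 co-receptors fell. With each sample left out, 1 to 2 proteases and nucleases rose, 2 of them without CpG replicate 1. On the log2(CPM + 1) scale 2 genes had a log2FC over 1, as Ly96 was at 0.70, the change of Tlr4 minus Ly96 was -1.73 and that of Cd180 minus Tlr4 was -0.49; the cause was not tested. Few reads of Tlr3, Tlr4, Ly96 and Tlr12 limit their precision.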
